A study of Mus musculus with 4 samples.

Results

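The pericyte genes were Rgs5, Kcnj8, Abcc9, Notch3, Vtn, Pdgfrb and Cspg4, 7 genes chosen as a list of symbols and found by exact symbol among the 21885 genes of the deposited feature lists, each under a single Ensembl identifier. All 7 had counts in each of the 4 mouse heart sections, and all 7 passed the filter on low counts of every fit. Pericytes are the mural cells that lie in the basement membrane of capillaries and contact the endothelium directly, and the heart is rich in them because nearly every cardiomyocyte lies next to a capillary. Endothelial PDGF-B holds them on the vessel through the receptor PDGFR-beta (Pdgfrb), contact with endothelial Jagged and Delta ligands acts through Notch3, and an ATP-sensitive potassium channel built from Kir6.1 (Kcnj8) and SUR2 (Abcc9) sets their membrane potential. RGS5 (Rgs5) limits signalling from G-protein-coupled receptors, vitronectin (Vtn) is a secreted adhesion protein, and NG2 (Cspg4) is a proteoglycan of the pericyte surface. None of these genes is restricted to pericytes: vascular smooth muscle also carries Notch3 and Rgs5, fibroblasts also carry Pdgfrb, and cardiomyocytes carry their own form of SUR2 from Abcc9.

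The sections were taken from hearts of Collagen1a1-GFP mice aged 8 to 12 weeks, in which the collagen promoter drives a green fluorescent reporter, so that every heart, the control included, carried the transgene. There was 1 section of an uninjured heart (control, labelled female), 1 from 3 days after myocardial infarction (3 dpi, labelled female) and 2 from 5 days after it (5 dpi, 1 labelled female and 1 labelled male); the infarct came from permanent ligation of the left anterior descending coronary artery. Each section was placed on a Visium slide, on which a spot records the poly(A) RNA of a small area that can hold several cells of different types. With 1 section a heart, the control and 3 dpi groups had no replicate, and the hearts of the infarcted sections were the only replication.

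After spots with under 500 UMIs (molecules counted by their barcode), under 250 genes or over 50% mitochondrial UMIs were left out, 1146 control, 1741 3 dpi, 1535 5 dpi female-labelled and 1423 5 dpi male-labelled spots remained, with 6250183 to 11010109 UMIs a section. Mitochondrial genes took 40.1% of the control UMIs and 13.3% to 21.4% of those after infarction, so levels are given as CPM, a gene's UMIs for every 1000000 UMIs of the non-mitochondrial genes. The 5 dpi section with the female label held 704 UMIs of 4 Y-linked genes and the one with the male label held 1, which goes against those labels; the sexes were therefore not compared, and the labels are used below only as names. Zones followed the share of non-mitochondrial UMIs from 12 cardiomyocyte genes. Spots under 0.5 times their section's 90th percentile formed the infarct zone (IZ) where at least 10 of them touched, spots within 2 steps outside it formed border zone 2 (BZ2), those 3 or 4 steps outside formed border zone 1 (BZ1), and the other spots above the limit formed the remote zone (RZ); low spots outside such patches were in no zone. Cardiomyocyte genes made up 8.18% to 9.81% of the UMIs in RZ and 0.672% to 2.05% in IZ, and 10.1% in the control.

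**Figure D1:**
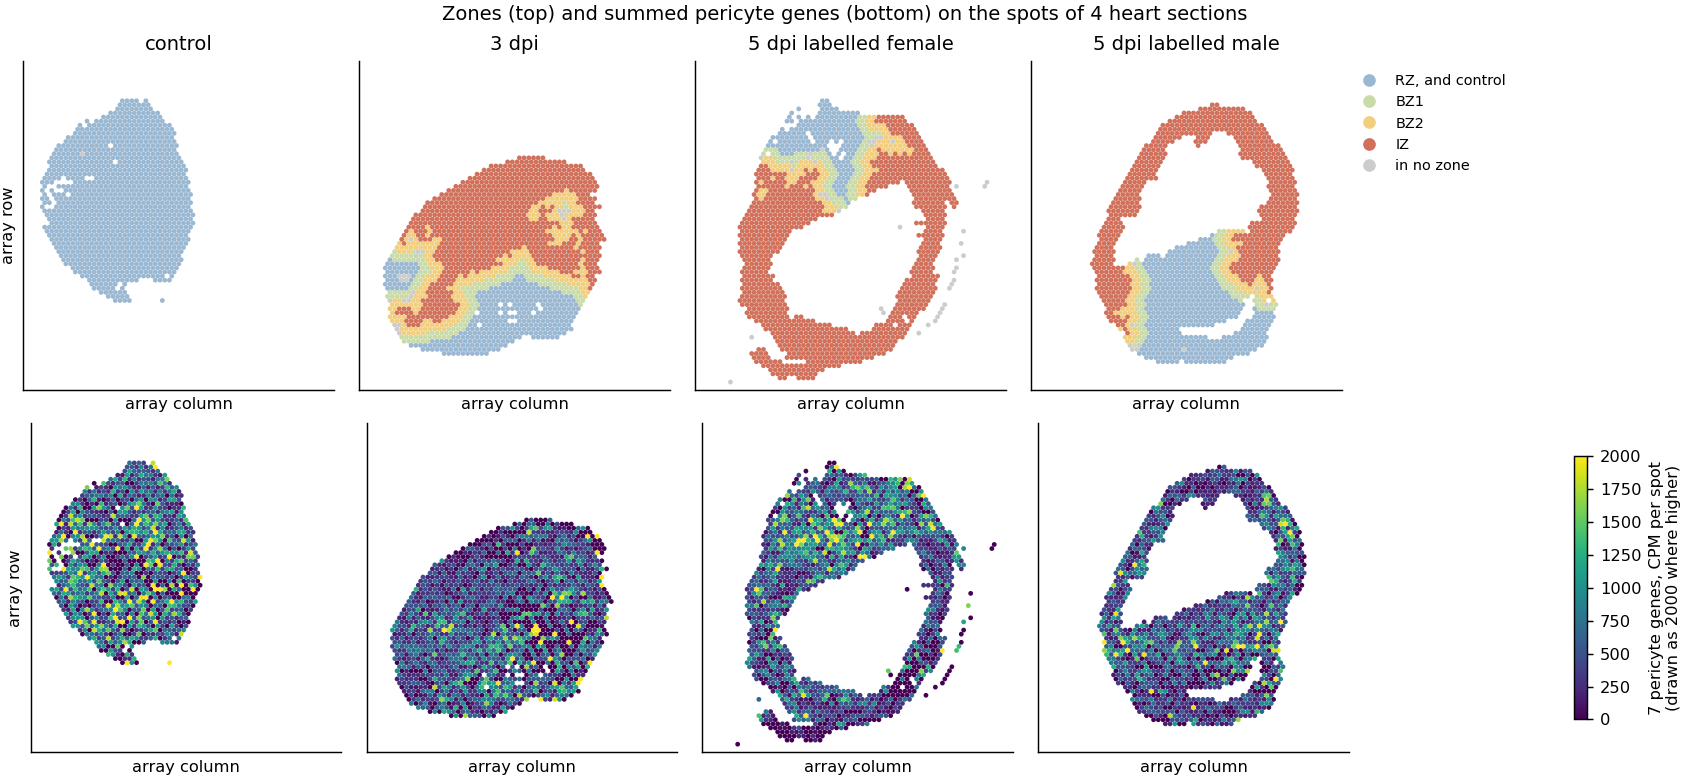
Each point is a tissue spot at its place on the slide (array column and row, no unit), coloured by zone in the upper panels (the control in the colour of RZ) and by the summed CPM of the 7 pericyte genes in the lower panels (the highest spots drawn at the top of the scale), for the control, 3 dpi and both 5 dpi sections. The infarct zone holds 882, 1061 and 684 spots of the 3 infarcted sections.

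The promoters of the 4 genes whose levels were lower in IZ together are shown side by side, as the sequence just before each gene's start. They are RefSeq windows on GRCm38.p6 of the 250 bases before the start, read 5′ to 3′ on the gene's strand: Rgs5 at chr1:169655251-169655500 (plus strand), Kcnj8 at chr6:142571615-142571864 (minus), Abcc9 at chr6:142702275-142702524 (minus) and Vtn at chr11:78498870-78499119 (plus). Capitals mark the core to which RBPJ, the DNA-binding partner of Notch receptors, binds, searched as TGGGAA on either strand.
Rgs5: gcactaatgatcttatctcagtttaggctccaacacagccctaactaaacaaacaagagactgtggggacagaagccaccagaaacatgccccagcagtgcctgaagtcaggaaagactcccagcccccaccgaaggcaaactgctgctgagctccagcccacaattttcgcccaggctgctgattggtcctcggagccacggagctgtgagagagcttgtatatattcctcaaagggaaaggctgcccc
Kcnj8: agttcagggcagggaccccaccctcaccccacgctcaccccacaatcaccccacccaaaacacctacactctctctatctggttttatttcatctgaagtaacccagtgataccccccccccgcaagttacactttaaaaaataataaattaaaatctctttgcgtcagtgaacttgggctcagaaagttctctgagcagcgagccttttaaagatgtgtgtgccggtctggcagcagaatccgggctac
Abcc9: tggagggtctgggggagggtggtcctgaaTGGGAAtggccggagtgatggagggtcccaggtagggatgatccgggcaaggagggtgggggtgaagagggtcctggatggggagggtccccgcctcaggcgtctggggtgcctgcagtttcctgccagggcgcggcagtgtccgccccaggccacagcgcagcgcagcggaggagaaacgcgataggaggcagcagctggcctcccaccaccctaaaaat
Vtn: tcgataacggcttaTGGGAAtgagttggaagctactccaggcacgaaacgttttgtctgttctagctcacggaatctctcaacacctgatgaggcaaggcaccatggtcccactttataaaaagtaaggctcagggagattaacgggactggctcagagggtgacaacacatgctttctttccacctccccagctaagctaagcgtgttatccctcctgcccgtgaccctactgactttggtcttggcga
The Abcc9 and Vtn windows held 1 match each, with 215 and 230 bases between the match and the gene's start, and the Rgs5, Kcnj8, Notch3 and Cspg4 windows held none; 21.6% of 32851 promoters of that length held at least 1. The CArG box, the site of serum response factor in smooth muscle genes, was in none of the 6 windows searched and in 1.47% of all promoters. A match is a run of letters and not a shown site. The Abcc9 window ends at the transcript start the table uses, which lies inside the gene as annotated. Kcnj8 and Abcc9 are neighbours on chromosome 6, with 0 annotated genes between them.

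Across whole sections the pericyte genes did not move as a block. Rgs5, Kcnj8, Abcc9 and Vtn stood lower in each of the 3 infarcted sections than in the control, and Pdgfrb, Cspg4 and Notch3 stood higher. With 1 control section there was no test of these differences, and the intervals given are exact 95% Poisson intervals that cover counting error only. In Visium spots, fewer cells of a type and less RNA in each cell cannot be told apart.

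Abcc9 was at 125 CPM in the control (114 to 137) and at 39.0, 27.7 and 31.1 CPM at 3 dpi and in the female-labelled and male-labelled 5 dpi sections, in that order here and below. Its channel partner Kcnj8 was at 83.1 CPM in the control (74.1 to 92.9) and at 32.7, 26.9 and 36.7 CPM. For both channel genes the control interval lay above all 3 infarcted sections. Vtn was at 59.9 CPM in the control (52.3 to 68.2) and at 23.8, 25.6 and 26.9 CPM after infarction. Rgs5, which held the most UMIs of the 7 in every section, was at 313 CPM in the control (296 to 332) and at 172, 198 and 207 CPM. The ratios to the control were 0.547, 0.632 and 0.660 for Rgs5 and lower, 0.312, 0.221 and 0.249, for Abcc9. Counted per spot, the ratio of Rgs5 was 0.806 at 3 dpi but 1.20 and 1.18 at 5 dpi, and over all UMIs it was 0.719, 0.914 and 0.945, while Kcnj8, Abcc9 and Vtn stood below the control on both scales in all 3 sections. The receptor Pdgfrb was at 58.5 CPM in the control (51.0 to 66.8) and at 103, 159 and 123 CPM after infarction. Cspg4 was at 23.2 CPM in the control (18.6 to 28.7) and at 45.1, 56.9 and 44.6 CPM. Notch3 was at 38.5 CPM in the control (32.5 to 45.3) and 49.4, 55.3 and 52.7 CPM after infarction, with the lower end of the 3 dpi interval, 44.8, inside that of the control. Over all UMIs the ratios to the control of Notch3 were 1.69, 2.08 and 1.96, those of Pdgfrb 2.32, 3.93 and 3.02 and those of Cspg4 2.55, 3.54 and 2.75. Per spot they were higher still, from 1.89 for Notch3 at 3 dpi to 5.17 for Pdgfrb in the female-labelled 5 dpi section.

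Summed over the 7 genes, the level was 702 CPM in the control and 465, 549 and 522 CPM after infarction, or 0.663, 0.783 and 0.744 times the control. These ratios depend on the denominator: over all UMIs, mitochondrial ones included, they were 0.870, 1.13 and 1.07, and counted per spot they were 0.976, 1.49 and 1.33. The deficit of the sum was therefore a deficit relative to other nuclear transcripts. As a count per spot it did not hold at 5 dpi, and at 3 dpi the count was close to the control (0.976).

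Between the infarct and the remote zone, 4 of the 7 genes were lower in IZ, 1 was higher and 2 did not pass the test. The fit was edgeR's quasi-likelihood test on UMIs summed by zone, 12 sums from the 3 infarcted sections, with the section as a block; over all 9444 genes tested, 27.0% were lower and 26.8% higher, so that a call in this comparison was common. The median log2 fold change of the 7 was -1.02 against 0.05 over all genes. The scaling factors (TMM) of that fit shifted the log2 fold change of the median gene by -0.42; without them 17.2% of genes were lower and 48.7% higher, and with counts per spot, a choice made after the data were seen, 9.25% were lower and 77.5% higher.

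On the TMM scale the channel genes Abcc9 and Kcnj8 had the largest differences of the 7; per spot Pdgfrb, Notch3 and Cspg4 had larger ones than either, and without scaling factors Pdgfrb a larger one than Kcnj8. Abcc9 was at 76.0, 57.3 and 45.1 CPM in RZ and at 19.8, 17.7 and 20.05 CPM in IZ, with no overlap between the zones over the 3 sections. Its log2 fold change was -2.03 (SE 0.18, edgeR adjusted p = 5.66e-09), and the call held under all 15 alternatives run, counts per spot included, where the log2 fold change was -0.93 (adjusted p = 2.94e-05). Kcnj8 was at 56.5, 46.6 and 41.1 CPM in RZ and at 22.2, 19.4 and 31.8 CPM in IZ, again without overlap. The log2 fold change of Kcnj8 was -1.39 (SE 0.21, adjusted p = 1.47e-05), and counted per spot it was -0.29 (adjusted p = 0.203). The counts are by gene and cannot separate the vascular and cardiomyocyte forms of SUR2 from Abcc9.

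Rgs5 was at 246, 307 and 198 CPM in RZ and at 129, 166 and 197 CPM in IZ. The gap was thus clear at 3 dpi and in the female-labelled 5 dpi section, while on the plain CPM scale the male-labelled section had the same level in both zones. On the TMM scale the log2 fold changes of Rgs5 by section were -1.36, -1.24 and -0.48, and the fit gave -1.02 (SE 0.16, adjusted p = 1.33e-05). Counted per spot, Rgs5 did not differ detectably, with a log2 fold change of 0.09 (adjusted p = 0.617). Vtn was at 39.1, 40.6 and 32.6 CPM in RZ and at 18.8, 21.4 and 22.5 CPM in IZ, without overlap. Its log2 fold change was -1.24 (SE 0.17, adjusted p = 4.17e-06), and -0.14 per spot (adjusted p = 0.461). Of the 4 genes called lower per UMI, only Abcc9 was also called lower per spot.

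Pdgfrb went the other way. It was at 76.8, 95.5 and 58.4 CPM in RZ and at 119, 168 and 165 CPM in IZ, so that every IZ value lay above every RZ value. The log2 fold change was 0.58 (SE 0.16, adjusted p = 0.0051), and 1.68 per spot (adjusted p = 3.19e-09). The call did not hold in a fit without the section block (0.59) or without the male-labelled 5 dpi section (0.33). Notch3 was at 39.1, 43.0 and 36.7 CPM in RZ and at 46.9, 54.7 and 63.2 CPM in IZ, higher in IZ in 3 of 3 sections on the plain scale, but its log2 fold change on the TMM scale was 0.06 (SE 0.18, adjusted p = 0.803). Cspg4 was at 36.9, 52.5 and 33.4 CPM in RZ and at 43.9, 55.4 and 48.2 CPM in IZ, and its log2 fold change was -0.12 (SE 0.14, adjusted p = 0.503). Counted per spot, Notch3 and Cspg4 were called higher in IZ, with log2 fold changes of 1.16 and 0.98. Per UMI but without scaling factors, Notch3 was also called higher (0.48, adjusted p = 0.029), and Cspg4 was at 0.30 and not called.

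**Figure D2:**
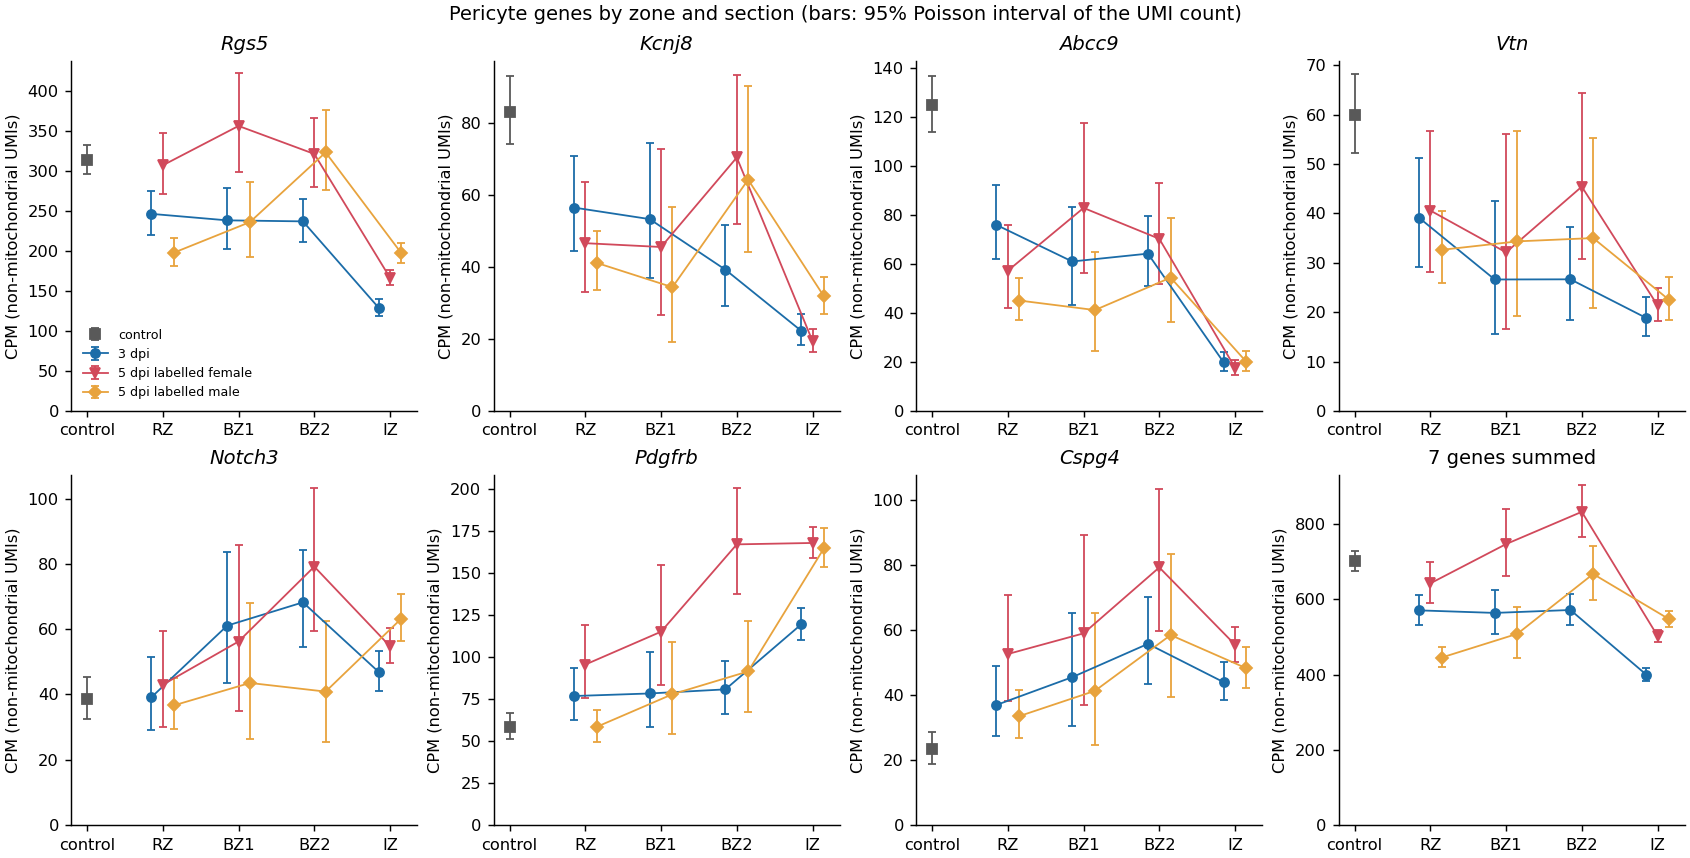
Each panel shows a pericyte gene's level in CPM over non-mitochondrial UMIs in the control section and in RZ, BZ1, BZ2 and IZ of the 3 infarcted sections, with exact 95% Poisson intervals as bars. Abcc9, Kcnj8 and Vtn drop at IZ in all 3 sections, and Pdgfrb is at its highest there or, in the female-labelled 5 dpi section, level with BZ2 (168 against 167 CPM).

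**Figure D3:**
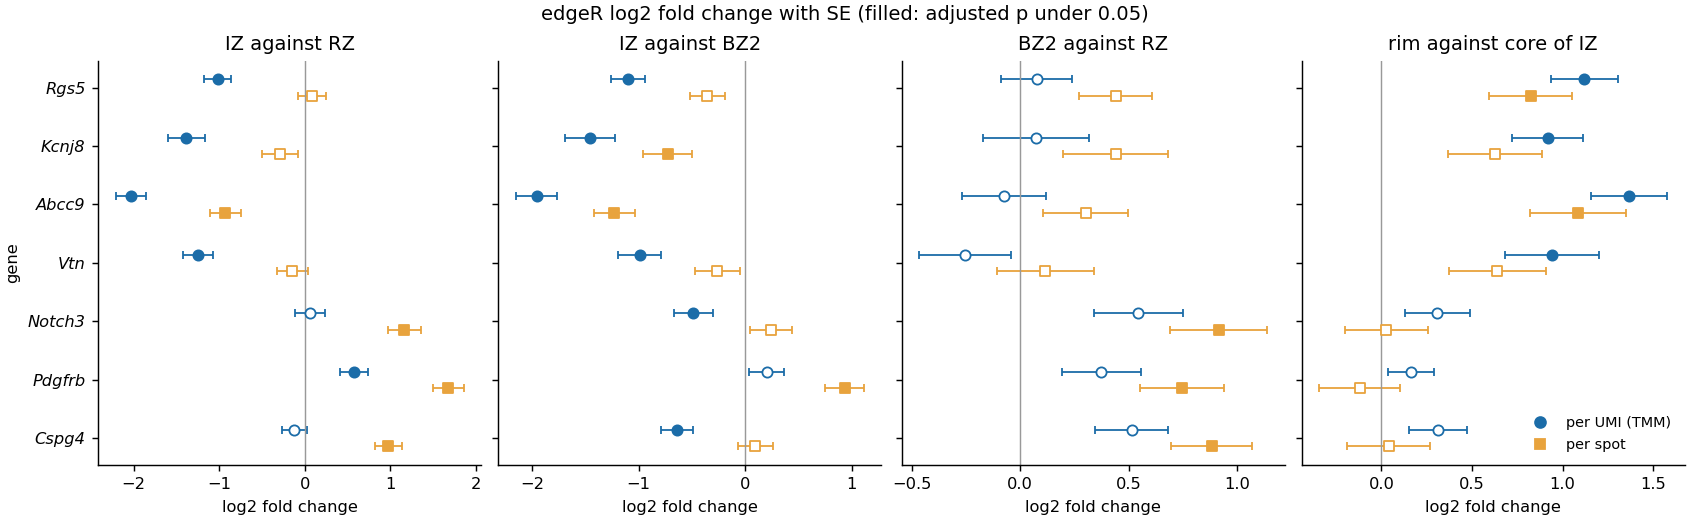
Log2 fold changes of the 7 genes with standard errors in 4 comparisons of zones, from edgeR on UMI sums scaled by TMM (circles) and on counts per spot (squares), filled where the adjusted p was under 0.05. In IZ against RZ the per-spot estimates lie to the right of the TMM estimates, and only Abcc9 remains below 0 and called.

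At the border, none of the 7 genes was called lower. In BZ2 against RZ none passed the test in either direction with edgeR, against 4.21% of all genes higher and 4.80% lower (7.86% and 3.07% without scaling factors, 18.9% and 1.38% per spot); at an unadjusted p under 0.05, 2 were higher and 0 lower, and DESeq2 called 0. Cspg4 was at 55.7, 79.2 and 58.4 CPM in BZ2, above its RZ level in 3 of 3 sections, with a log2 fold change of 0.51 (SE 0.17, adjusted p = 0.063). Notch3 was at 68.2, 79.2 and 40.9 CPM in BZ2, with a log2 fold change of 0.55 (SE 0.21, adjusted p = 0.12). Pdgfrb was at 80.8, 167 and 91.4 CPM, with a log2 fold change of 0.37 (SE 0.18, adjusted p = 0.24). Counted per spot, these 3 genes were called higher in BZ2. Rgs5, Kcnj8, Abcc9 and Vtn had log2 fold changes of 0.08, 0.07, -0.07 and -0.25 and the lowest adjusted p of these, that of Vtn, was 0.55.

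Across the edge of the infarct most of the 7 genes were lower on the inner side. In IZ against BZ2, 6 of the 7 were lower and none higher, against 19.9% and 14.5% of all genes (14.2% and 28.2% without scaling factors, 8.32% and 62.2% per spot), and the median log2 fold change of the 7 was -0.99 against 0.01 over all genes. Abcc9 (-1.96, SE 0.20), Kcnj8 (-1.46, SE 0.24), Rgs5 (-1.10, SE 0.16), Vtn (-0.99, SE 0.20) and Cspg4 (-0.64, SE 0.15) were lower in 3 of 3 sections on the CPM scale, with the highest adjusted p of these, that of Cspg4, at 0.0022. Abcc9 and Kcnj8 kept the call under all 15 alternatives, Rgs5 and Vtn under 14 and Cspg4 under 11. Notch3 had a log2 fold change of -0.49 (SE 0.18, adjusted p = 0.046), was lower in 2 of 3 sections, and lost the call under 11 of 15 alternatives. Pdgfrb was not called, at 0.20 (SE 0.17, adjusted p = 0.38), but it was called higher without scaling factors (0.46, adjusted p = 0.038) and per spot (0.93, adjusted p = 7.9e-05). Counted per spot, only Abcc9 and Kcnj8 were called lower. DESeq2 called 5 lower and 0 higher, and 0 were higher at an unadjusted p under 0.05. In RZ, 4 of the 7 genes already stood below the 1 control section in CPM, without a test, at 0.608, 0.458 and 0.361 times it for Abcc9, 0.679, 0.560 and 0.494 for Kcnj8, 0.654, 0.678 and 0.545 for Vtn and 0.785, 0.979 and 0.631 for Rgs5. In the female-labelled section the RZ interval of Rgs5, 270 to 347 CPM, held the control level of 313 CPM. Per 100 spots Rgs5 was higher there, at 128.5 UMIs against 102.4 in the control. The other 3 genes did not stand below the control in every section, with Cspg4 at 1.59, 2.26 and 1.44 times the control, Pdgfrb at 1.31, 1.63 and 0.998 and Notch3 at 1.02, 1.12 and 0.953.

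Inside the infarct 4 of the 7 genes differed by depth. Spots 1 or 2 steps inside IZ (rim) were compared with those over 4 steps inside (core), in 6 sums over 10462 genes, of which 11.8% were higher in the rim and 6.73% lower (9.23% and 13.6% without scaling factors, 6.76% and 13.5% per spot). Rgs5, Kcnj8, Abcc9 and Vtn were higher in the rim in 3 of 3 sections and past the test, and Notch3, Pdgfrb and Cspg4 were not. None of the 7 was called lower by edgeR or DESeq2, or at an unadjusted p under 0.05.

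Abcc9 was at 31.6, 34.4 and 34.2 CPM in the rim and at 12.0, 13.9 and 19.0 CPM in the core, with a log2 fold change of 1.37 (SE 0.21, adjusted p = 0.00044) that held under all 15 alternatives. Rgs5 was at 150.1, 349.7 and 266 CPM in the rim and at 94.9, 117 and 182 CPM in the core, with a log2 fold change of 1.12 (SE 0.19, adjusted p = 0.00079). Kcnj8 was at 28.1, 30.8 and 47.5 CPM in the rim and at 18.5, 15.4 and 30.4 CPM in the core, with a log2 fold change of 0.92 (SE 0.20, adjusted p = 0.0053). In each of these genes the core was lower in the same section, although the Rgs5 and Kcnj8 ranges of rim and core overlapped across sections. Vtn was at 20.1, 44.4 and 26.6 CPM in the rim and at 16.9, 16.7 and 21.8 CPM in the core, and most of its log2 fold change of 0.94 (SE 0.26, adjusted p = 0.022) came from the female-labelled section (1.60 on the TMM scale, against 0.38 and 0.46). DESeq2 called 2 of the 4, counts per spot 2, and a fit without the section block 1. Pdgfrb showed no such gap and was at 114, 171 and 159.8 CPM in the rim and at 117, 164 and 164 CPM in the core. Notch3 was at 45.2, 72.5 and 59.0 CPM in the rim and at 51.8, 48.4 and 60.9 CPM in the core. Cspg4 was at 45.2, 69.8 and 49.4 CPM in the rim and at 45.8, 53.8 and 48.7 CPM in the core.

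Some markers of other cells also differed between rim and core, to be read beside the 11.8% of all genes higher and 6.73% lower. The cardiomyocyte channel gene Kcnj11 was higher in the rim (3.01), as were 1 of 9 endothelial genes, Fabp4 (0.70), and 2 of 8 fibroblast genes, Postn (0.98) and Dcn (0.60), with none of either list lower. Lower in the rim were 3 of 6 macrophage genes, Cd68 (-1.24), Lyz2 (-0.96) and C1qb (-0.41), and 2 of 7 smooth muscle genes, Actg2 (-1.66) and Acta2 (-0.75), with none of either list higher. Their part in the levels of the 4 pericyte genes was not tested.

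In the profile by distance, Rgs5 differed between the sections in where it dropped, a difference that was not tested. In the female-labelled 5 dpi section it stayed near its border level up to 4 steps inside, at 321 CPM 1 or 2 steps outside, 349.7 CPM 1 or 2 steps inside and 295 CPM 3 or 4 steps inside, and was at 117 CPM deeper. In the male-labelled section the same positions had 323, 266, 257 and 182 CPM. At 3 dpi they had 237, 150.1, 146 and 94.9 CPM. Abcc9 dropped at the edge in all 3 sections, from 64.3, 70.4 and 54.5 CPM outside to 31.6, 34.4 and 34.2 CPM inside. At 3 or 4 steps inside, where counts were thin, it was at 12.0, 22.8 and 10.8 CPM. Pdgfrb stood higher across the same edge at 3 dpi (80.8 to 114 CPM) and in the male-labelled section (91.4 to 159.8 CPM) and was nearly flat in the female-labelled section (167 to 171 CPM).

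**Figure D4:**
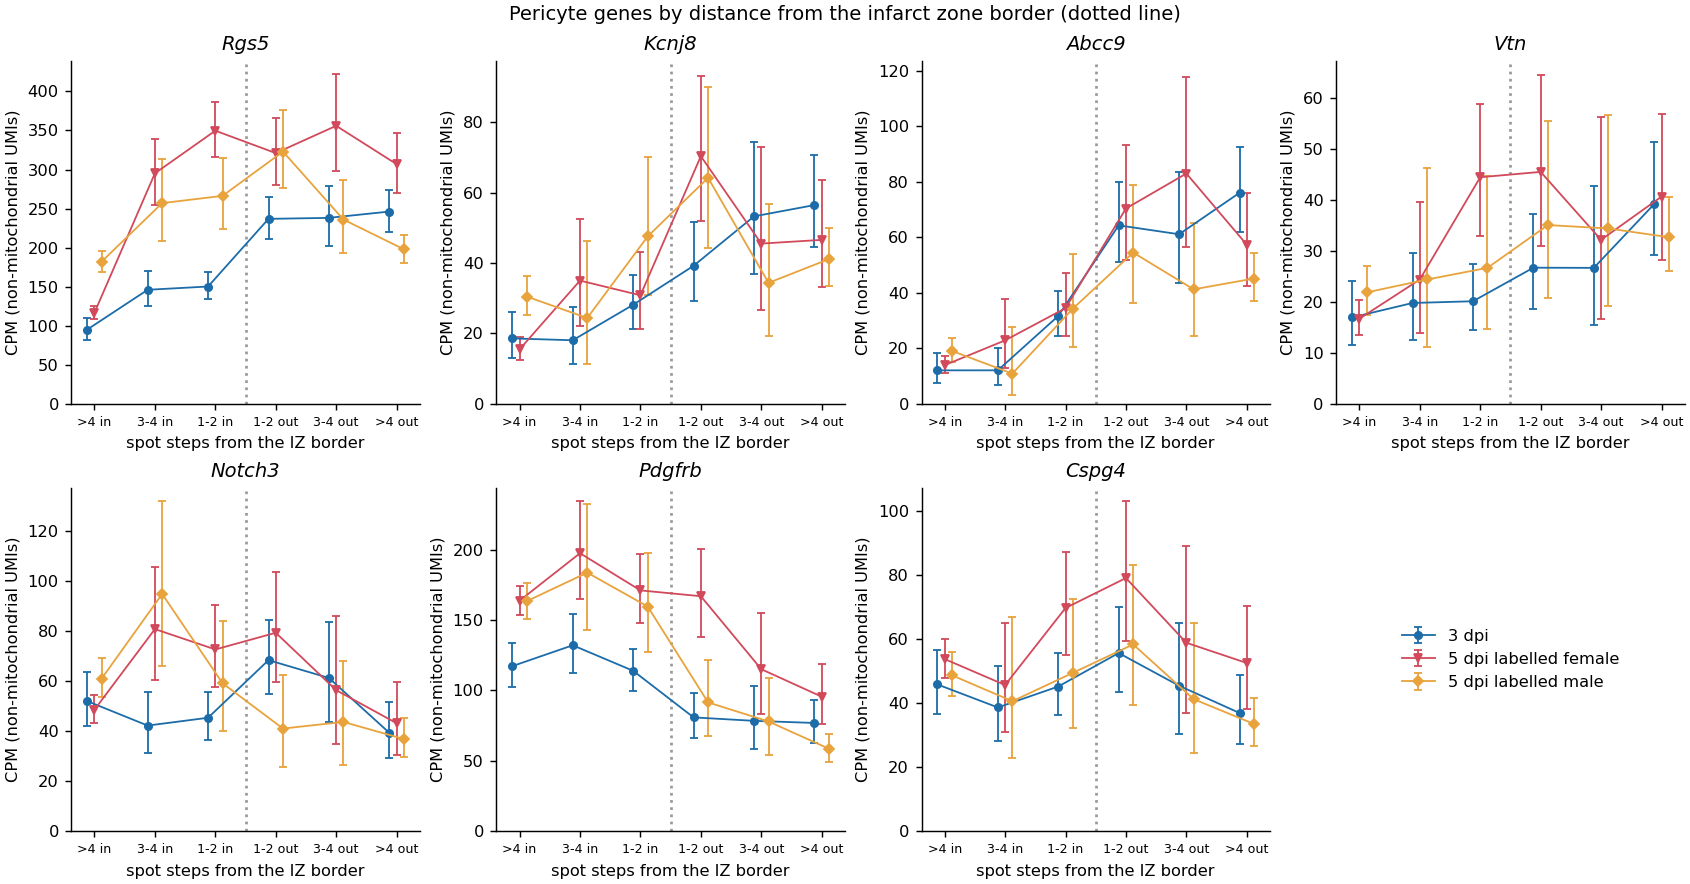
Level (CPM) of each gene by distance from the edge of the infarct zone, in spot steps from over 4 inside (left) to over 4 outside (right), 1 line for each infarcted section with exact 95% Poisson intervals. Rgs5 is lowest beyond 4 steps inside in all 3 sections (94.9, 117 and 182 CPM), Abcc9 falls at the edge in all 3 sections, and Pdgfrb is higher inside than far outside.

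The zones were set from the cardiomyocyte share, and classes of that share give the same axis in finer steps, not a separate line of support. In spots under 0.1 times the 90th percentile Abcc9 was at 8.86, 11.8 and 16.6 CPM, and in spots at 0.75 or above it was at 76.7, 66.5 and 48.6 CPM. Rgs5 was at 90.3, 128 and 174 CPM in the lowest class and at 248, 348 and 221 CPM in the highest. Pdgfrb was at 116, 166 and 165 CPM in the lowest class and at 68.7, 106 and 56.0 CPM in the highest, the reverse of Abcc9. Cspg4 was highest in the classes between, at 56.7 CPM from 0.5 to 0.75 at 3 dpi and at 82.8 and 61.8 CPM from 0.1 to 0.25 at 5 dpi. These classes use cardiomyocyte UMIs that are also in the denominator of CPM. With the 12 cardiomyocyte genes left out of the library size and no scaling factors, which changes 2 things at once, the calls of the 7 in IZ against RZ were the same, and Cspg4, which was not called, turned from -0.12 to 0.18.

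Set against endothelial UMIs in place of all UMIs, the genes differed again. The denominator was the sum of Pecam1, Cdh5, Kdr and Tie1, general endothelial genes, of which Kdr (-1.48), Pecam1 (-0.65) and Cdh5 (-0.55) were themselves lower in IZ in the fit. On the CPM scale Pecam1 and Cdh5 were lower in IZ in only 2 of 3 sections. Values are UMIs per 100 endothelial UMIs, without a test. Rgs5 was at 73.1 in the control, at 63.0, 63.8 and 48.5 in RZ and at 31.9, 55.5 and 57.1 in IZ. With these 4 genes it was thus lower in IZ at 3 dpi. At 5 dpi it was lower in 1 section, with overlapping Poisson intervals, and higher in the other. Abcc9 was at 29.2 in the control, at 19.5, 11.9 and 11.1 in RZ and at 4.91, 5.90 and 5.82 in IZ. With these 4 genes as denominator it was lower in IZ in 3 of 3 sections. Pdgfrb was at 13.6 in the control, at 19.7, 19.9 and 14.3 in RZ and at 29.5, 56.1 and 47.8 in IZ, higher in IZ in 3 of 3 sections. Notch3 was at 8.97 in the control, at 10.0, 8.93 and 8.98 in RZ and at 11.6, 18.3 and 18.3 in IZ. Kcnj8 was at 19.4 in the control, at 14.5, 9.68 and 10.1 in RZ and at 5.50, 6.47 and 9.23 in IZ. Vtn was at 13.96 in the control, at 10.0, 8.44 and 8.00 in RZ and at 4.66, 7.14 and 6.53 in IZ. Both were lower in IZ in 3 of 3 sections with the 4 genes, with overlapping intervals in both 5 dpi sections. Cspg4 was at 5.42 in the control, at 9.44, 10.9 and 8.19 in RZ and at 10.9, 18.5 and 13.97 in IZ. With 5 more endothelial genes in the denominator (Egfl7, Cldn5, Emcn, Fabp4 and Aqp1), the IZ to RZ ratio of the 7 genes summed was 0.786, 1.81 and 3.08, against 0.677, 1.26 and 1.46 with the 4; Fabp4, Aqp1 and Cldn5 were themselves lower in IZ. With these 9 genes Rgs5, Abcc9, Kcnj8 and Vtn stayed lower in IZ at 3 dpi. In the male-labelled section Abcc9 was at 1.23 in RZ and 1.38 in IZ, with overlapping intervals, and Kcnj8 at 1.12 and 2.18. Vtn was at 1.54 and 1.88, with overlapping intervals, in the female-labelled section and at 0.893 and 1.55 in the male-labelled section. Rgs5 was higher in IZ in both 5 dpi sections (11.65 to 14.58 and 5.41 to 13.51).

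**Figure D5:**
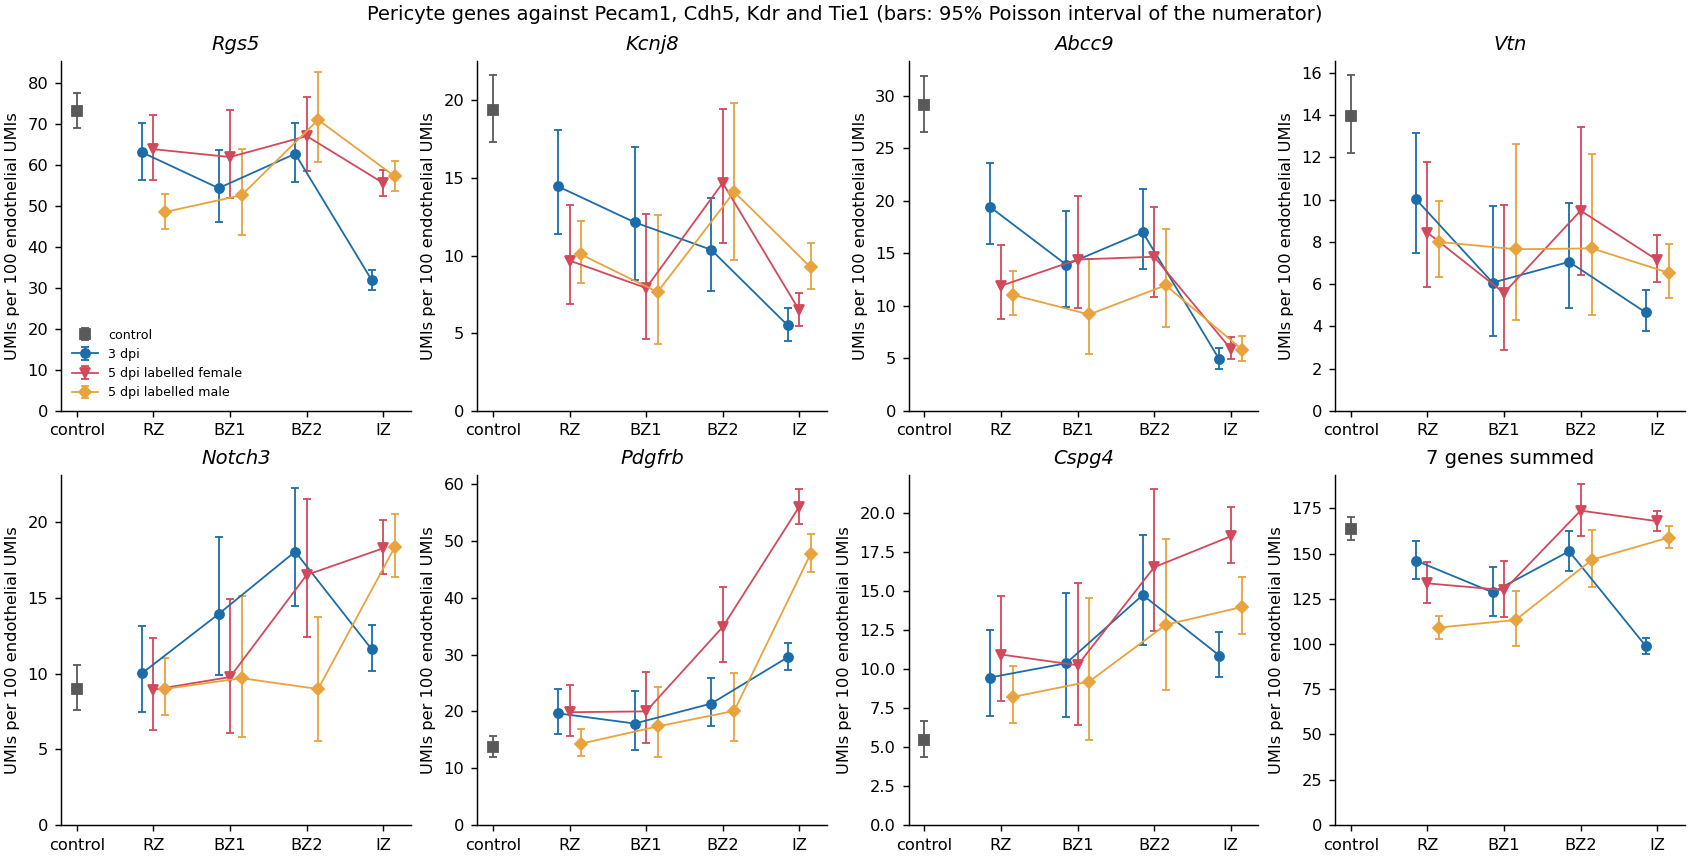
UMIs of each pericyte gene per 100 UMIs of 4 endothelial genes (Pecam1, Cdh5, Kdr, Tie1) in the control and in the zones of the 3 infarcted sections, with exact 95% Poisson intervals on the gene's counts. Abcc9 is lower and Pdgfrb higher in IZ than in RZ in all 3 sections, and Rgs5 is clearly lower in IZ only at 3 dpi (31.9 against 63.0). With 9 endothelial genes, not drawn, Abcc9 is not lower in IZ in the male-labelled 5 dpi section (1.23 in RZ and 1.38 in IZ).

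The share of spots with at least 1 UMI was read after thinning each spot to 1534 non-mitochondrial UMIs, because IZ spots were deeper (medians of 5516.5 to 6973 non-mitochondrial UMIs against 2965 to 4348 in RZ). Thinned, 30.7%, 38.0% and 25.2% of RZ spots and 17.4%, 19.99% and 24.0% of IZ spots held Rgs5. Abcc9 was in 12.1%, 8.57% and 6.85% of RZ spots and 3.45%, 2.86% and 2.77% of IZ spots, and Pdgfrb in 11.1%, 13.99% and 8.51% against 16.3%, 22.5% and 22.5%. The unthinned shares of Rgs5 were 50.8%, 68.0% and 52.9% in RZ and 45.0%, 48.3% and 58.3% in IZ, and in the male-labelled section the order of the zones turned with thinning. Spots left out as too shallow numbered 65, 10 and 16 in RZ and 87, 60 and 4 in IZ.

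The partners of these genes did not follow them as a group. Of 16 further genes listed as pericyte markers, 14 were tested in IZ against RZ, and 4 were lower and 2 higher, beside 27.0% and 26.8% of all genes, with a median log2 fold change of -0.08. Higd1b, a mitochondrial-membrane gene typical of pericytes, was at 34.6, 38.2 and 52.8 CPM in RZ and at 18.0, 20.1 and 26.9 CPM in IZ (log2 fold change -1.39, adjusted p = 1.99e-06). Cox4i2, a hypoxia-linked cytochrome oxidase subunit, was lower too (-1.17, adjusted p = 1.39e-04), as was Art3, an ADP-ribosyltransferase family member (-2.65, adjusted p = 1.2e-10). Anpep, a membrane aminopeptidase that macrophages and fibroblasts also carry, was higher (2.52, adjusted p = 4.6e-08).

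Among the PDGF genes, 2 of 5 were higher in IZ and none lower, beside 26.8% and 27.0% of all genes. Pdgfb, the endothelial ligand of PDGFR-beta, was at 45.2, 70.4 and 49.96 CPM in RZ and at 74.5, 56.9 and 66.8 CPM in IZ and did not pass the test (log2 fold change -0.13, adjusted p = 0.56). Pdgfc, a ligand of the alpha receptor, was at 2.26, 2.39 and 1.21 CPM in RZ and at 13.4, 23.5 and 20.7 CPM in IZ (2.99, adjusted p = 5.6e-06), and Pdgfra, that receptor, was higher as well (0.64, adjusted p = 0.01). The receptor Pdgfrb was called higher in the same comparison. Of 11 Notch genes tested, 3 were higher and 3 lower, near the 26.8% and 27.0% of all genes: Notch2 (0.83), the ligand Jag1 (0.76) and the target Heyl (0.55) rose, and the ligand Jag2 fell (-1.60). The other 2 lower genes, Hes1 and Nrarp, went down in only 2 of 3 sections on the CPM scale. Dll4, the arterial and tip-cell ligand, was at 20.3, 16.7 and 23.8 CPM in RZ and at 23.6, 19.5 and 26.9 CPM in IZ (-0.26, adjusted p = 0.33).

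Kcnj11 and Abcc8 encode the pore and the sulfonylurea receptor that build other ATP-sensitive potassium channels, the pore being that of cardiomyocytes, and both were lower in IZ. Kcnj11 was at 73.8 CPM in the control, at 79.0, 39.4 and 49.2 CPM in RZ and at 13.2, 4.38 and 3.31 CPM in IZ (log2 fold change -3.51, adjusted p = 2.2e-10), and Abcc8 had a log2 fold change of -3.59 (adjusted p = 2.6e-09). Receptors that bind vitronectin were higher in IZ where Vtn was lower: the integrin chains Itgb3 (2.19), Itgav (1.40) and Itgb5 (1.20) and the urokinase receptor Plaur (1.61). Itgav was at 34.6, 43.0 and 39.5 CPM in RZ and at 125, 146 and 145 CPM in IZ, and at 22.2 CPM in the control. Of 6 basement membrane and angiopoietin genes tested, 2 were higher and 2 lower, beside the same shares of all genes: Lama4 (0.46) and Nid1 (0.42) rose, and Angpt1, the ligand that mural cells make for the endothelial receptor Tie2, fell (-2.54, adjusted p = 2.8e-07). Tek, which encodes that receptor, was the other lower gene (-0.43), in 2 of 3 sections.

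In BZ2 against RZ no gene of the further pericyte, PDGF, Notch or KATP lists passed the test, while the vitronectin receptor chains Itgav (0.64) and Itgb5 (1.02) were higher, and of the basement membrane and angiopoietin genes 3 of 6 were higher and Angpt1 lower (-1.80), beside 4.21% and 4.80% of all genes. In IZ against BZ2, 7 of 14 further pericyte genes were lower and 1 higher, beside 19.9% and 14.5% of all genes. In the rim against the core, 5 of 16 were higher and 2 lower, beside 11.8% and 6.73% of all genes, with Higd1b at a log2 fold change of 1.26. Itgb3 (-1.13) and Plaur (-1.32) were higher in the core, where Vtn was lower. The lists were chosen with results of these data known, so these counts are a description.

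Markers of other cell types differed between the zones as well, to be read beside the 26.8% of all genes higher and 27.0% lower in IZ (48.7% and 17.2% without scaling factors). Smooth muscle genes summed to 485 to 689 CPM in RZ and 1009 to 2208 CPM in IZ, with 5 of 7 tested genes higher, led by Actg2 (3.36), Cnn1 (2.02), Tagln (1.81) and Acta2 (1.39), contractile genes that myofibroblasts also carry. Smtn, the smooth muscle gene smoothelin, was called lower on the TMM scale (-0.48, adjusted p = 0.0057) while its CPM was higher in IZ in 2 of 3 sections, and Myh11, the myosin that defines mature smooth muscle, did not pass the test (-0.10, adjusted p = 0.74). Endothelial genes summed to 1981 to 3655 CPM in RZ and 1141 to 1767 CPM in IZ, with 6 of 9 lower: Fabp4 (-1.65), Aqp1 (-1.62), Kdr (-1.48), Cldn5 (-1.28), Pecam1 (-0.65) and Cdh5 (-0.55). The CPM of Pecam1 and Cdh5 was lower in IZ in only 2 of 3 sections. Fibroblast genes, of which Pdgfra was 1, summed to 3311 to 5202 CPM in RZ and 12245 to 25643 CPM in IZ, with 5 of 8 higher. Dcn, the proteoglycan decorin, was called lower on the TMM scale (-0.35, adjusted p = 0.032) while its CPM was higher in IZ in 2 of 3 sections. Macrophage genes summed to 1251 to 1651 CPM in RZ and 6267 to 9987 CPM in IZ, with 6 of 6 higher. Red cell genes were high everywhere (3331 to 33250 CPM) and lower in IZ in 4 of 4, and Schwann cell genes stayed at or under 12.5 CPM in every zone, with none tested. The part of these cells in the levels of Pdgfrb, Notch3 and the rest, and that of cardiomyocytes in the level of Abcc9, was not tested.

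Spots with a Myh11 UMI outside IZ marked places with smooth muscle, and Notch3 stood out there. Its level in the 46, 30, 34 and 34 such spots of the control and the infarcted sections was 78.5, 129, 131 and 80.3 CPM, against 36.6, 49.6, 50.9 and 35.6 CPM in spots without, a ratio of 2.14, 2.60, 2.57 and 2.26. The ratios of Rgs5 were 1.04, 1.49, 1.40 and 1.17, and those of Kcnj8 0.866, 0.659, 0.854 and 0.479. Notch3 was thus above 2 times its level elsewhere in Myh11 spots of all 4 sections, while Kcnj8 was lower in those spots in all 4. The intervals with and without Myh11 overlapped for Kcnj8 in all 4 sections and for Notch3 in the control. The ratios of Abcc9 were 1.06, 1.06, 0.528 and 0.220. The intervals of single genes are wide at this number of spots, and no test was run.

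Likeness between genes was measured as Pearson's r across tiles of neighbouring spots (74, 112, 98 and 95 tiles) after log2 of CPM plus 10, averaged over the 4 sections; tiles share their library and depth, so r is given as a description. Among the 7, Rgs5 and Abcc9 went together most (mean r 0.37, from 0.06 to 0.65), followed by Kcnj8 and Abcc9 (0.29), and Abcc9 and Pdgfrb least (-0.10, below 0 in all 4 sections). Against the sum of the other members, r was 0.39 for Rgs5, 0.31 for Abcc9, 0.29 for Vtn, 0.26 for Kcnj8, 0.24 for Notch3, 0.12 for Cspg4 and 0.11 for Pdgfrb. The last 2 means cover both signs, with Pdgfrb at -0.23 and Cspg4 at -0.06 at 3 dpi and the other sections from 0.19 to 0.25 for Pdgfrb and from 0.06 to 0.29 for Cspg4, while the other 5 genes were above 0 in all 4 sections (0.06 to 0.73). Of 4075 other genes with enough counts, the most alike to the sum of the 7 were Pi16 (0.45), Ltbp4 (0.43), Ly6c1, Sparcl1, Prelp (each 0.40), Lamb2, Dpt, Mb (each 0.39), Adamtsl2 and Dcn (each 0.38), and in smaller tiles of 2 by 4 positions these fell to between 0.15 and 0.25. Sections differed behind these means. Mb was at -0.02 in the male-labelled and 0.66 in the female-labelled section, and Lamb2 at 0.008 in the control and 0.78 in the female-labelled section. Pi16, Dpt and Dcn are genes of resting fibroblasts, Ly6c1 and Sparcl1 are carried by endothelium and Mb is cardiomyocyte myoglobin; of the further pericyte genes with enough counts Higd1b ranked 43, Cox4i2 104, Cygb 131, Art3 192, Ndufa4l2 260 and Mcam 2841 (mean r -0.04).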

How the data were processed

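The authors mapped the reads with Space Ranger 1.3.1 to a reference to which the GFP gene was added, and deposited whole-number UMI counts per gene and spot, with a table of spot positions and tissue marks; genome builds named in the labels and in the methods differ, and the deposited counts carry no coordinates. Spots were filtered at the limits the methods give (151 tissue spots failed), and 623 spots of the 5 dpi male-labelled matrix that lay off the tissue mark were left out. CPM was computed over UMIs outside 13 mitochondrial genes. UMIs were summed by zone and section and fitted in edgeR 4.0.16 (R 4.3.3) with TMM, filterByExpr, the section as a block and Benjamini-Hochberg adjustment over all genes tested; DESeq2 1.42.0 was an alternative. The fit was tested on simulated data. Zones were set from the cardiomyocyte genes, spots are not replicates, and p-values rest on 3 sections from 3 hearts. Other alternatives were the scaling factors, the library size, the filters, the zone limits, the block and leaving out each infarcted section. All 7 genes are reported; from each other list, up to 4 genes with the largest log2 fold change among those called in 3 of 3 sections were named, with some named whatever they did, and Itgb5, Hes1, Nrarp, Tek and, in the marker lists and the rim, Smtn and the genes called there were named after their values were seen. The members and lists were chosen with earlier results of these data known. Promoters came from RefSeq tables for 6 of the 7 genes. A listed partner gene is not reported here.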

Additional observations from a re-analysis of the deposited data

Results flagged for a closer look

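In BZ2 against RZ, the log2 ratio of CPM was below 0 at 3 dpi and above 0 in the female-labelled and male-labelled 5 dpi sections for 4 genes: Rgs5 (-0.06, then 0.07 and 0.71), Kcnj8 (-0.53, then 0.60 and 0.64), Abcc9 (-0.24, then 0.30 and 0.27) and Vtn (-0.55, then 0.16 and 0.10). With 1 section at 3 dpi the difference between the days was not tested. On the TMM scale the split held for Kcnj8 (-0.69, then 0.45 and 0.49) and Abcc9 (-0.41, then 0.15 and 0.12) and not for Rgs5 (-0.22, then -0.08 and 0.56) or Vtn (-0.72, then 0.02 and -0.05). The same split held in the rim against the core for Cspg4, at -0.02 at 3 dpi and 0.38 and 0.02 at 5 dpi, also not tested, but not on the TMM scale (0.12, then 0.56 and 0.19). In the 623 spots off the tissue mark of the male-labelled section, which entered no comparison, Pdgfrb was at 93.8 CPM (95% exact Poisson interval 81.5 to 107) and Cspg4 at 39.5 CPM (31.7 to 48.6), above their control levels of 58.5 and 23.2 CPM, with intervals apart. Notch3 was at 41.7 CPM (33.7 to 51.1) against 38.5 (32.5 to 45.3), with overlapping intervals, and the other 4 genes were below the control.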

How the results depend on the processing

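Of the log2 fold changes of the 7 genes under the alternatives, 351 kept direction and side of the threshold, 29 lost the call, 15 gained it and 25 changed sign; the cause was not tested. Counting per spot gave the most changes. In IZ against RZ it gave 8191 called genes in place of 5084, 3 of the 7 higher in place of 1 and 1 lower in place of 4, with Rgs5 at 0.09 and Cspg4 at 0.98. In BZ2 against RZ it gave 1915 in place of 851 and 3 higher in place of 0, with Abcc9 at 0.30 and Vtn at 0.12; in IZ against BZ2 6656 in place of 3249, 1 higher in place of 0 and 2 lower in place of 6, with Notch3 at 0.25 and Cspg4 at 0.10; and in rim against core 2 higher in place of 4, with Pdgfrb at -0.12. Without scaling factors, 2 genes were higher in IZ against RZ, with Cspg4 at 0.30, 2 in BZ2 against RZ, with Abcc9 at 0.09, and 1 in IZ against BZ2, and Pdgfrb was at -0.0017 in rim against core. Without cardiomyocyte genes in the library size, a fit that also had no scaling factors, Cspg4 was at 0.18 in IZ against RZ, and in BZ2 against RZ 1 gene was higher and Abcc9 was at 0.04.

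Without the section block, which is the replicate pairing here, 0 of the 7 were higher in IZ against RZ, 56 genes were called in BZ2 against RZ, and 1042 genes and 1 of the 7 in rim against core; DESeq2 gave 1057 and 2 there. A cardiomyocyte limit of 0.35 gave 1422 called genes and 1 of the 7 higher in BZ2 against RZ, with Kcnj8 at -0.16, and Notch3 at -0.02 in IZ against RZ. A limit of 0.65 gave 443, with Kcnj8 at -0.36 and Vtn at 0.04, and Pdgfrb at -0.09 in rim against core. With no minimum patch, Rgs5 was at -0.08 and Kcnj8 at -0.17 in BZ2 against RZ.

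Leaving out 1 section at a time, the called genes ranged from 4163 to 4624 in IZ against RZ, 158 to 705 in BZ2 against RZ, 2130 to 2926 in IZ against BZ2 and 1153 to 2500 in rim against core, and the members higher from 0 to 1 in IZ against RZ (0 without 5dpi replicate 2) and from 0 to 1 in BZ2 against RZ (1 without 3dpi replicate 1). The members lower in IZ against BZ2 ranged from 4 to 6 and those higher in the rim from 3 to 5. Signs turned among these fits in BZ2 against RZ for Abcc9 (-0.18 to 0.16, above 0 without the 3 dpi section), Vtn (-0.40 to 0.04, above 0 without the same), Kcnj8 (-0.17 to 0.55, below 0 without either 5 dpi section, -0.13 without the female-labelled) and Rgs5 (-0.15 to 0.25, below 0 without the male-labelled section), and in IZ against RZ for Notch3 (-0.08 to 0.20, below 0 without the male-labelled section).

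Summed over the 7 genes, the ratio to the control of 0.663, 0.783 and 0.744 became 0.870, 1.13 and 1.07 over all UMIs and 0.624, 0.718 and 0.695 without cardiomyocyte genes in the denominator. Per endothelial UMI, the IZ to RZ ratio of 0.786, 1.81 and 3.08 became 0.677, 1.26 and 1.46 with 4 endothelial genes. The share of spots with a UMI of any of the 7, IZ minus RZ, of 0.6, -4.4 and 10.9 percentage points became -13.3, -12.5 and 5.1 when thinned. Abcc9 kept its call under all 15 alternatives in IZ against RZ, IZ against BZ2 and rim against core. Depth limits single genes, which rest on 12 to 302 UMIs a section in the border zones.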
